A study of Rattus norvegicus with 24 samples.

Results

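The genes described here mark the inhibitory interneurons of the hippocampus and the peptides these cells make: Gad1, Gad2, Slc32a1, Sst, Pvalb, Vip, Npy, Cck, Lhx6 and Nos1. They are 10 genes listed by symbol; the rule uses no measured value, although the list was drawn up with earlier results of these data known. Of these, 9 had values among the 20318 features of the deposited table, and Npy was not analysed here. All 9 passed the filter set before testing, which kept genes whose normalised counts averaged 10 or more.

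RNA of the hippocampus of female rats, 6 months old at surgery, was sequenced in 24 libraries of 4 groups. Sham-operated rats (SHAM, n = 7) had intact ovaries and 7 weeks of vehicle. OVX rats (n = 7) lost their ovaries and also had 7 weeks of vehicle. Prevention rats (n = 5) lost their ovaries and were given the estrogen estradiol (E2) for 5 weeks. Treatment rats (n = 5) lost their ovaries, were given vehicle for 3 weeks, and switched to estradiol for the last 2 weeks. The labels give no time from surgery to tissue collection, so the length of dosing, 7 weeks with vehicle against 5 weeks in all in the estradiol groups, cannot be told apart from the agent. The libraries are numbered within each group, but nothing states that each is a separate animal, and p-values measure the spread between these libraries.

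Interneurons release the inhibitory transmitter GABA, which glutamate decarboxylase (Gad1, Gad2) makes from glutamate and the vesicular transporter Slc32a1 loads into synaptic vesicles. Subtypes are told apart by a peptide or a calcium-binding protein: somatostatin (Sst) cells contact the dendrites of principal neurons, parvalbumin (Pvalb) basket cells fire fast and contact their cell bodies, and vasoactive intestinal peptide (Vip) cells mostly contact other interneurons. Cholecystokinin (Cck) marks another class of basket cell and is also made by principal neurons. Neuronal nitric oxide synthase (Nos1) marks neurogliaform and ivy cells, and the homeodomain factor Lhx6 acts in the lineage that gives Sst and Pvalb cells. Somatostatin transcription is the textbook case of control through the cyclic AMP response element, the site bound by the factor CREB.

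Promoter stretches are shown for Sst, the gene with the largest change in 3 of the 4 comparisons, and for Gad2 and Slc32a1, whose levels moved together between libraries. They come from RefSeq (build GRCr8), which held a stretch of 300 bases around the annotated start site for 9 of the 10 genes and none for Cck. Capitals mark matches, on either strand, to TGACGTCA (the cyclic AMP response element), to its shorter form TGACG, which lies inside it, or to GGTCA (the core bound by nuclear receptors, read TGACC on the other strand). The Sst stretch, chr11:90461466-90461565 on the plus strand, runs from 80 bases before to 20 bases after the annotated start. The Slc32a1 stretch, chr3:167687145-167687244, and the Gad2 stretch, chr17:89671618-89671717, are the 100 bases before the start on the plus strand.
Sst: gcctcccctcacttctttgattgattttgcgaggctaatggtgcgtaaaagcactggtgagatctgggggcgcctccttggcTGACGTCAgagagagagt
Slc32a1: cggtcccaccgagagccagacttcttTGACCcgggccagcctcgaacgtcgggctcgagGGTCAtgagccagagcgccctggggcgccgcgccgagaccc
Gad2: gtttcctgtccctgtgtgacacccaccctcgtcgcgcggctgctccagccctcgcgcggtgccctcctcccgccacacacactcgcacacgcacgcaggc

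TGACGTCA lay at bases 3 to 10 after the annotated Sst start and at bases 9 to 2 before that of Nos1. The Nos1 start used, chr12:44371837 on the minus strand, lies inside the gene, which spans 44276011 to 44456371. Whether the annotated starts are the ones used in this tissue was not tested. TGACGTCA was in 2 of the 9 stretches and in 1.83% of all 33469 stretches of 300 bases. TGACG was in 5 of 9 (Sst, Nos1, Vip, Slc32a1 and Pvalb) and in 21.2% of all. GGTCA was in 4 of 9 (Slc32a1, Vip, Pvalb and Nos1) and in 40.5% of all. The complete palindromic estrogen response element, GGTCANNNTGACC, was in 0 of 9 and in 0.0269% of all, so these letters are not in the windows searched. These matches describe letters and are not evidence of binding. In the bases before the start, the G+C content was 73.6% for Slc32a1, 68.4% for Gad1 and 62.0% for Gad2, against 44.4% for Sst, 40.0% for Vip and a median of 51.2% over all stretches.

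Values are the authors' normalised counts, in arbitrary units that are not per length, so levels are compared between libraries and not between genes. Column totals ran from 35.4 to 38.8 M (mega). All 11 listed genes of pyramidal and granule neurons were above 0 in every library, with sums of 126857 to 200846. The libraries differed in features that the labels do not name. One set of 7 libraries, all 5 of Prevention and Treatment replicates 1 and 2, had the transcript LOC257642 above 16 on the log2 scale, and the other 17 had it below (called the high and low sets here). No Prevention library is in the low set, and no library of OVX or SHAM is in the high one. Library set and estradiol thus cannot be told apart in Prevention against OVX. Where a term for the library set is used below, it rests on Treatment replicates 1 and 2 against the other Treatment libraries alone. Genes of the thalamus, a neighbouring region, were high in 5 libraries: Prevention replicates 1 and 4, Treatment 6, OVX 2 and SHAM 5. Their thalamus score was above 9.5, and in the other 19 it was at most 9.22. The score is the mean log2 value of the listed thalamus genes other than Calb2, which is also among the other interneuron markers below.

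The first question was whether any interneuron gene changed with ovariectomy or estradiol. Tests used limma on log2(normalised count + 1) over 16119 genes, with an adjusted p under 0.05 as the threshold. In OVX against SHAM, 0 of 9 interneuron genes passed (0 at an unadjusted p under 0.05), where 0% of all genes passed and 6.25% had an unadjusted p under 0.05. In Prevention against OVX, 0 of 9 passed (1 unadjusted, Sst), where 0.304% of all genes passed and 18.6% had an unadjusted p under 0.05. In Treatment against OVX, 0 of 9 passed (0 unadjusted), where 0% of all genes passed and 7.19% did unadjusted. In Treatment against Prevention, 0 of 9 passed (1 unadjusted, again Sst), where 0% of all genes passed and 5.38% did unadjusted. The interneuron genes had 7, 3, 4 and 5 of 9 positive changes in these 4 comparisons, with median changes of 0.04, -0.04, -0.05 and 0.01 on the log2 scale, and the medians over all genes were 0.00430, 0.000810, -0.00165 and -0.00235. Prevention and Treatment share the OVX libraries as controls. In bulk tissue, fewer cells of a type and less RNA per cell cannot be told apart.

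**Figure D1:**
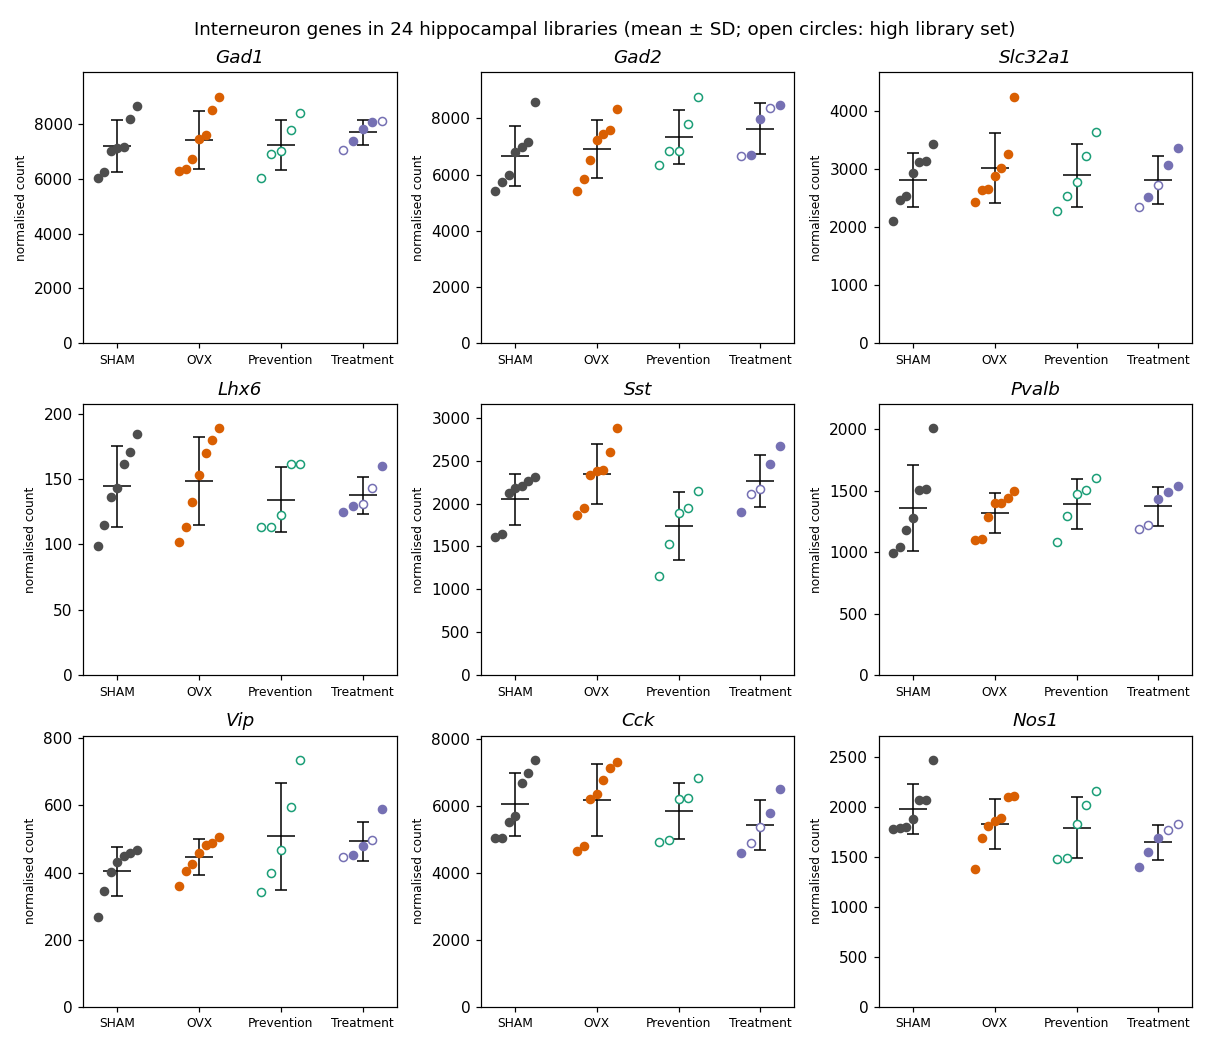
Normalised counts (y axis, from 0) of the 9 interneuron genes in every library, by group (x axis), with the group mean and SD as black lines and open circles for the 7 libraries of the high set. The groups overlap for every gene, and the Sst values of Prevention sit lowest, with a mean of 1737 against 2344 in OVX.

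Sst, the somatostatin precursor, had the largest change of the 9 genes in 3 of the 4 comparisons, all but Treatment against OVX. Prevention libraries 1 to 5 measured 1157, 1953, 1532, 1890 and 2152 normalised counts. OVX libraries ran from 1868 to 2878 with a median of 2377. All 5 Prevention libraries were below the OVX median and 2 were below every OVX library, so the groups overlapped in part. The mean was 1737 ± 394 (SD, n = 5) in Prevention and 2344 ± 349 (SD, n = 7) in OVX, a change of -0.45 on the log2 scale (SE 0.14, 95% interval -0.73 to -0.17, 0.731-fold). The unadjusted p was 0.00273 and the adjusted p was 0.0894 (limma), so the difference did not pass. Without Prevention replicate 1, the lowest library, the change was -0.31 (adjusted p = 0.202), and with a term for the library set it was -0.33 (unadjusted p = 0.203, adjusted p = 0.999). That term is estimated from the Treatment libraries alone, so it cannot separate set from estradiol here.

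Treatment libraries 1, 2, 5, 6 and 7 measured 2115, 2165, 2461, 1903 and 2677 normalised counts of Sst, a mean of 2264 ± 305 (SD, n = 5). All 5 were above the Prevention median and 3 were above every Prevention library. Against Prevention the change was 0.41 (SE 0.15, interval 0.10 to 0.71, unadjusted p = 0.0105, adjusted p = 0.752). Within the high set, where Treatment replicates 1 and 2 stand against the 5 Prevention libraries, it was 0.33 (unadjusted p = 0.151). Without Prevention replicate 1 it was 0.27 (unadjusted p = 0.0552). Against OVX, Treatment differed by -0.05 (interval -0.32 to 0.23, adjusted p = 0.947).

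In SHAM, Sst ran from 1605 to 2308 normalised counts with a median of 2187, and the mean was 2048 ± 294 (SD, n = 7). Of the 7 OVX libraries, 5 were above every SHAM library, while the other two lay inside the SHAM range. The change of OVX against SHAM was 0.19 (SE 0.12, interval -0.06 to 0.45, adjusted p = 0.834, limma). Differences between the 4 groups held 35.4% of the variance of Sst, against 1.64 to 20.9% for the other 8 interneuron genes and a median of 14.4% over all genes. Prevention replicate 1, with the lowest Sst of the 24, was also a library of high thalamus score (10.2) and choroid plexus score (10.98).

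Genes of other tissues differed between the libraries that carry the Sst result. The 12 thalamus genes, Calb2 included, were above 0 in every library. Their sums in normalised counts were 6641 to 22746 in Prevention and 5463 to 18387 in OVX. In Treatment they were 5720 to 18369 and in SHAM 5683 to 23686. The 9 choroid plexus genes with values, none at 0, summed to 1318 to 81257, 954 to 84868, 576 to 82450 and 712 to 160782 in the same order. In the 5 libraries of high thalamus score the median Sst was 1890, against 2187 in the other 19. These medians pool the groups. Prevention replicates 1 and 4, of the group with the lowest mean Sst, are among the 5, so the contrast is not separate from group. Without those 5 libraries the change of Prevention against OVX was -0.32 (unadjusted p = 0.0302, adjusted p = 0.324). With the thalamus score as a covariate it was -0.37 (limma, unadjusted p = 0.00538, adjusted p = 0.0755). With the choroid plexus score it was -0.43 (limma, unadjusted p = 0.00164, adjusted p = 0.0643). The fit without covariates had an unadjusted p of 0.00273 (limma). Adjusted p depends on all genes, of which 604 and 261 passed with these covariates, against 49 without. Without those 5 libraries the difference was thus smaller, in the same direction, and Prevention rested on replicates 2, 3 and 5. Leaving out Prevention replicate 1 alone gave a change of -0.31, so the fall is not separate from that library.

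**Figure D2:**
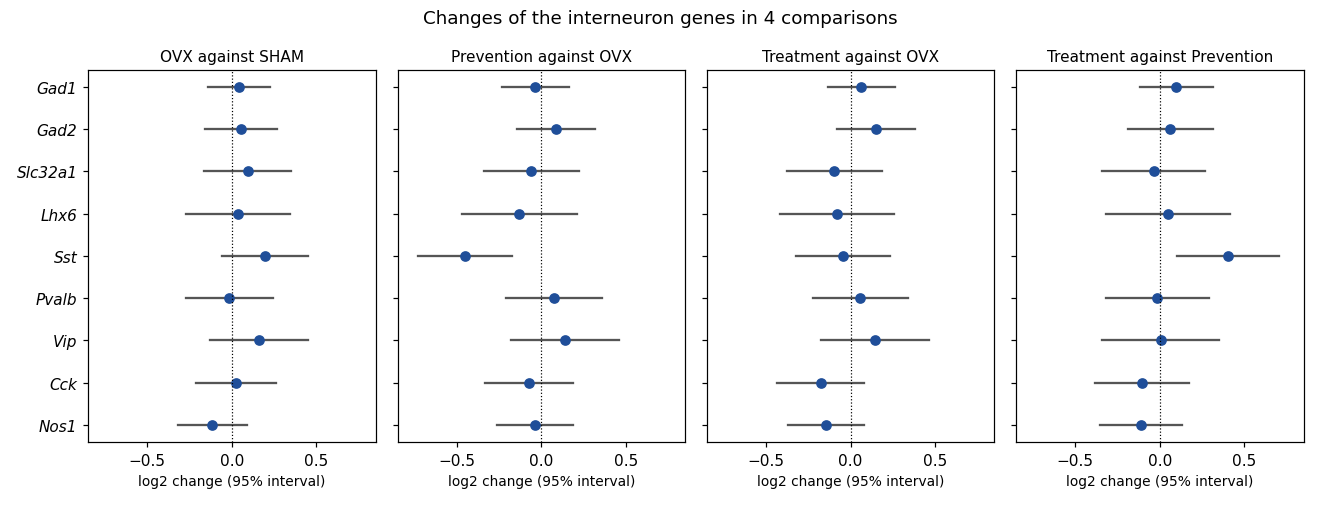
Log2 change (x axis) of each interneuron gene (y axis) in the 4 comparisons, with points for the estimate and lines for the 95% interval. Only the intervals of Sst in Prevention against OVX (-0.73 to -0.17) and in Treatment against Prevention (0.10 to 0.71) leave out 0, and neither passed after adjustment.

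**Figure D3:**
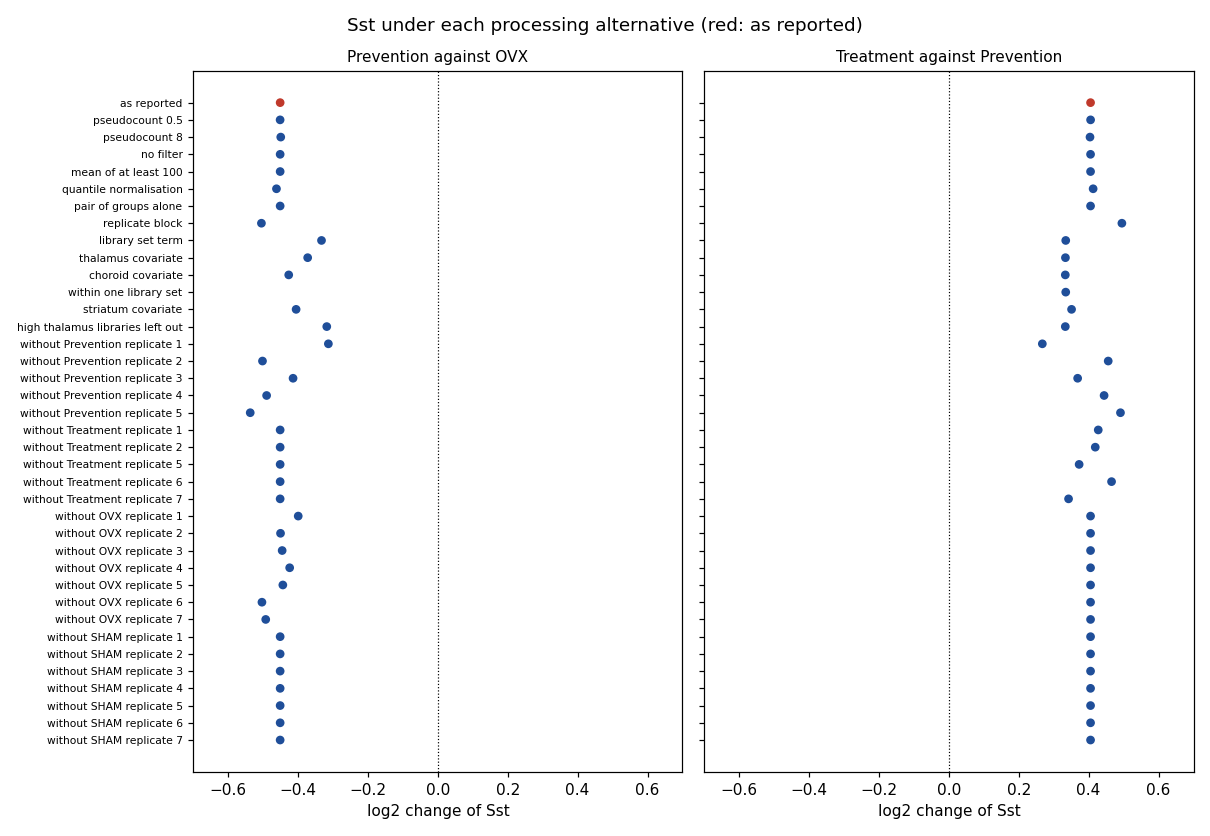
Log2 change of Sst (x axis) in Prevention against OVX and in Treatment against Prevention under each processing alternative and with each library left out (y axis), with the reported value in red. The change of Prevention against OVX lay between -0.54 and -0.31 and that of Treatment against Prevention between 0.27 and 0.50.

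Gad1, the decarboxylase found through the whole cell, measured 7212 ± 952 in SHAM, 7425 ± 1052 in OVX (SD, n = 7 each), 7236 ± 911 in Prevention and 7708 ± 462 in Treatment (SD, n = 5 each). All 5 Treatment libraries, 7073 to 8136, were above the Prevention median of 7014, inside a Prevention range of 6032 to 8413. The changes ran from -0.03 (Prevention against OVX) to 0.10 (Treatment against Prevention), with adjusted p from 0.895 to 0.987 in limma. Its intervals were the narrowest of the 9 genes: for OVX against SHAM, -0.14 to 0.22 on the log2 scale, or 0.906- to 1.17-fold.

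Gad2, the decarboxylase concentrated at nerve terminals, measured 6664 ± 1072 in SHAM, 6913 ± 1027 in OVX, 7326 ± 967 in Prevention and 7639 ± 893 in Treatment. The estradiol groups had the higher means, and 2 Treatment libraries (8381 and 8460) and 1 Prevention library (8778) were above every OVX library, whose highest value was 8326. The change was 0.15 in Treatment against OVX (interval -0.08 to 0.38, adjusted p = 0.773) and 0.09 in Prevention against OVX (interval -0.14 to 0.32, adjusted p = 0.735). The ratio of Gad2 to Gad1 within a library was 0.925 ± 0.0958 in SHAM, 0.931 ± 0.0490 in OVX, 1.01 ± 0.0339 in Prevention and 0.990 ± 0.0919 in Treatment. The ratio ranges of the 4 groups overlapped, from 0.783 to 1.08 over all libraries.

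Slc32a1, the vesicular GABA transporter, measured 2814 ± 465 in SHAM, 3014 ± 606 in OVX, 2887 ± 545 in Prevention and 2801 ± 415 in Treatment. OVX replicate 2 had the highest value of the 24 (4244) and SHAM replicate 7 the lowest (2099). The changes ran from -0.10 (Treatment against OVX, interval -0.38 to 0.19) to 0.09 (OVX against SHAM, interval -0.16 to 0.35), with adjusted p from 0.864 to 0.998 in limma.

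Lhx6, the lineage factor, measured 144 ± 30.8 in SHAM, 149 ± 33.7 in OVX, 134 ± 25.1 in Prevention and 138 ± 14.2 in Treatment. Its spread within groups was the widest of the 9 (SD 0.29 on the log2 scale, where Gad1 had 0.18 and the median gene 0.15). The change of Prevention against OVX was -0.13 (interval -0.47 to 0.21, adjusted p = 0.731), so a difference of up to 0.723-fold lies inside the interval.

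Pvalb, the calcium-binding protein of fast-spiking basket cells, had nearly level group means: 1361 ± 351 in SHAM, 1321 ± 161 in OVX, 1393 ± 206 in Prevention and 1374 ± 161 in Treatment. SHAM held both extremes, 2008 in replicate 5 and 997 in replicate 7. Replicate 5 of SHAM also had the highest thalamus score of the 24 (10.4). With the groups pooled, the median Pvalb of the 5 high-thalamus libraries was 1492 against 1288 in the other 19. The 4 changes lay between -0.02 and 0.07, with intervals reaching from -0.32 to 0.36 and adjusted p of at least 0.828 (limma). With a term for the library set, the change of Prevention against OVX was 0.38 in place of 0.07 (unadjusted p = 0.141, adjusted p = 0.999).

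Vip, the peptide of interneurons that contact other interneurons, measured 403 ± 73.6 in SHAM, 446 ± 52.9 in OVX, 507 ± 158 in Prevention and 493 ± 58.1 in Treatment. Prevention libraries 1 to 5 measured 467, 595, 341, 734 and 399.7 normalised counts. They spread from below the lowest OVX library (359) to above the highest (507), with 1 library below and 2 above. The change was 0.14 in both estradiol groups against OVX (intervals -0.18 to 0.46, adjusted p = 0.690 and 0.844). Without Prevention replicate 4, the highest, and a library of high thalamus score, the change of Prevention against OVX was -0.0079.

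Cck, the peptide shared by one class of basket cell and by principal neurons, measured 6043 ± 949 in SHAM, 6169 ± 1068 in OVX, 5838 ± 843 in Prevention and 5426 ± 752 in Treatment. Of the 5 Treatment libraries, 4 were below the OVX median of 6341 and 1 was below every OVX library. The change of Treatment against OVX was -0.18 (interval -0.43 to 0.08, adjusted p = 0.757). In Prevention against OVX it was -0.07 (adjusted p = 0.814).

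Nos1, which makes nitric oxide, measured 1980 ± 249 in SHAM, 1832 ± 249 in OVX, 1793 ± 307 in Prevention and 1647 ± 174 in Treatment. Treatment libraries 1, 2, 5, 6 and 7 measured 1831, 1766, 1690.0, 1552 and 1397 normalised counts. All 5 were below the OVX median of 1861 and none was below every OVX library, whose lowest was 1379. The change was -0.15 in Treatment against OVX (interval -0.37 to 0.08, adjusted p = 0.770) and -0.12 in OVX against SHAM (interval -0.32 to 0.09, adjusted p = 0.903). With a term for the library set, the change of Treatment against Prevention was 0.02 in place of -0.11. The fit within the high set gives the same estimate by design, and both rest on Treatment libraries 1 and 2.

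The next question was which interneuron genes moved together between libraries. Group means were first removed, so these relations are within groups. Permutation tests (two-sided, 100000 draws within groups) were run over 36 pairs of genes with Benjamini-Hochberg adjustment. Of the 36, 28 were positive and 4 passed. Gad2 and Slc32a1 had a Pearson r of 0.84 (Spearman rho 0.84, permutation p = 1e-05, the smallest these draws can give, adjusted p = 0.000240). Gad1 had an r of 0.84 with Gad2 and 0.81 with Slc32a1 (permutation p = 2e-05, adjusted p = 0.000240 for both; rho 0.84 and 0.82). Without the 2 libraries farthest from the median of the first gene, the 3 values were 0.81, 0.87 and 0.85. Within the low set they were 0.82, 0.80 and 0.76, and within the high set 0.92, 0.95 and 0.96.

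Between subtype genes and GABA genes, none of the coefficients passed. Sst had an r of 0.03 with Gad1, -0.10 with Gad2 and 0.06 with Slc32a1, and Pvalb 0.17, 0.17 and 0.33 in the same order. The highest r among subtype genes was 0.57 for Vip and Cck (permutation p = 0.00471, adjusted p = 0.0424), with a rho of 0.50 (adjusted permutation p = 0.0828). Without the 2 farthest libraries it was 0.56, within the low set 0.58 and within the high set 0.64. With group means left in, it was 0.40 (permutation p = 0.0504), which misses the threshold. Sst and Lhx6 had an r of 0.56 (rho 0.52, permutation p = 0.00791, adjusted p = 0.0570), which did not pass. Pvalb, which shares that lineage, had an r of -0.06 with Lhx6 (rho -0.01) and of 0.09 with Sst. Pvalb and Cck had an r of 0.52 (permutation p = 0.0132, adjusted p = 0.0791) and a rho of 0.61, which passed (adjusted permutation p = 0.0357). The difference between these coefficients was not tested.

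**Figure D4:**
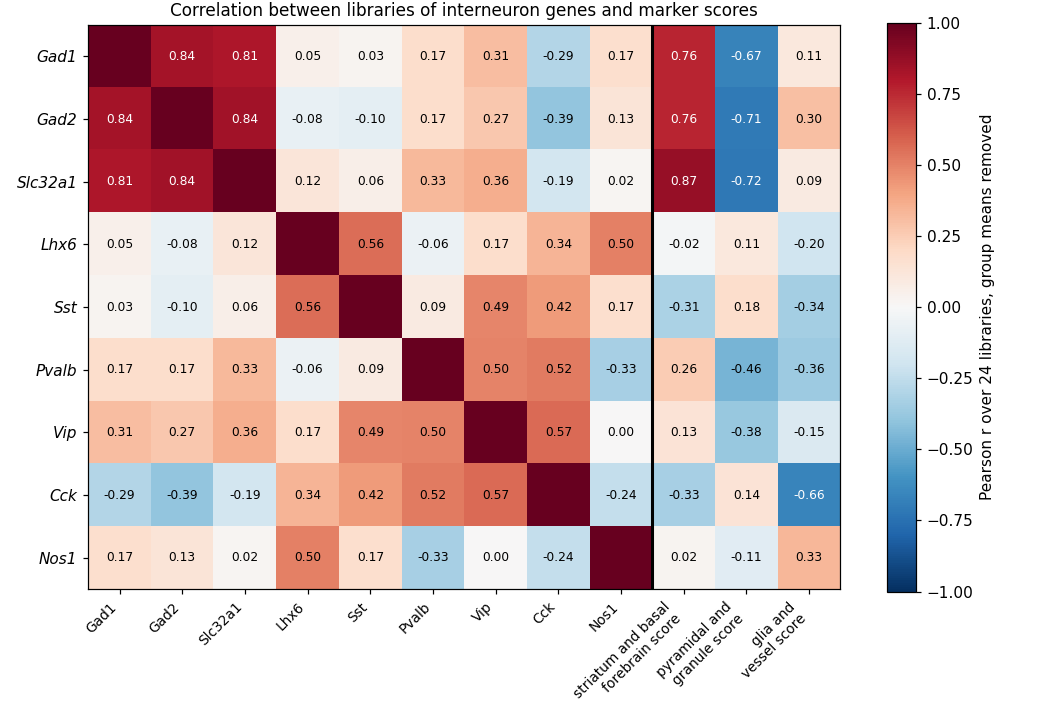
Pearson r over 24 libraries with group means removed, between interneuron genes (rows and first 9 columns) and with the scores of striatum and basal forebrain, of pyramidal and granule neurons, and of glia and vessels (last 3 columns). Gad1, Gad2 and Slc32a1 form a block of 0.81 to 0.84 and share the sign of their relations to the first and second scores.

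Scores of marker genes were set beside the interneuron genes in the same way (54 relations, of which 10 passed, 6 positive and 4 negative). Each score is the mean log2 value of a list, for the thalamus without Calb2. GABA is also the transmitter of striatal projection neurons. The striatum and basal forebrain score, from 10 genes such as the dopamine receptors Drd1 and Drd2 and the acetylcholine-synthesis gene Chat, had an r of 0.87 with Slc32a1 (rho 0.87, permutation p = 1e-05, adjusted p = 0.000540). It had an r of 0.76 with Gad1 and with Gad2 (rho 0.75 and 0.77, adjusted permutation p = 0.00108 for both). The 2 libraries whose score lay farthest from the median, with group means removed, were OVX replicate 2 and Treatment replicate 6. Without them the values were 0.82, 0.83 and 0.80 for Slc32a1, Gad1 and Gad2. Within the low set they were 0.92, 0.76 and 0.77, and within the high set 0.74, 0.76 and 0.74. The relation of the score to Sst was -0.31 (rho -0.25, permutation p = 0.158, adjusted p = 0.355). Scarce genes moved most in this score: over the 24 libraries Isl1 ran from 1.04 to 174 normalised counts, Chat from 2.28 to 185 and Slc5a7 from 24.1 to 376. Drd1 ran from 98.7 to 312 and Ppp1r1b from 2650 to 4738. Relations of single genes of the list were not tested. The r values are those of the whole list and not of striatal projection neurons alone.

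All 10 genes of that list were above 0 in every library. Their sums were 9309 to 11389 normalised counts in SHAM, 8745 to 11350.3 in OVX, 10232 to 13302 in Prevention and 9727 to 11548 in Treatment. These sums come mainly from the abundant Gng7 (3924 to 6115) and Ppp1r1b (2650 to 4738), and not from the scarce genes that move the score most. In Prevention against OVX, 9 of the 10 had a positive change (median 0.21, where the median over all genes was 0.000810) and 0 passed. With the score as a covariate, the change of Gad2 in that comparison went from 0.09 to -0.0038, and that of Slc32a1 in Treatment against Prevention from -0.04 to 0.12. Whether cells of those regions contributed RNA was not tested.

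**Figure D5:**
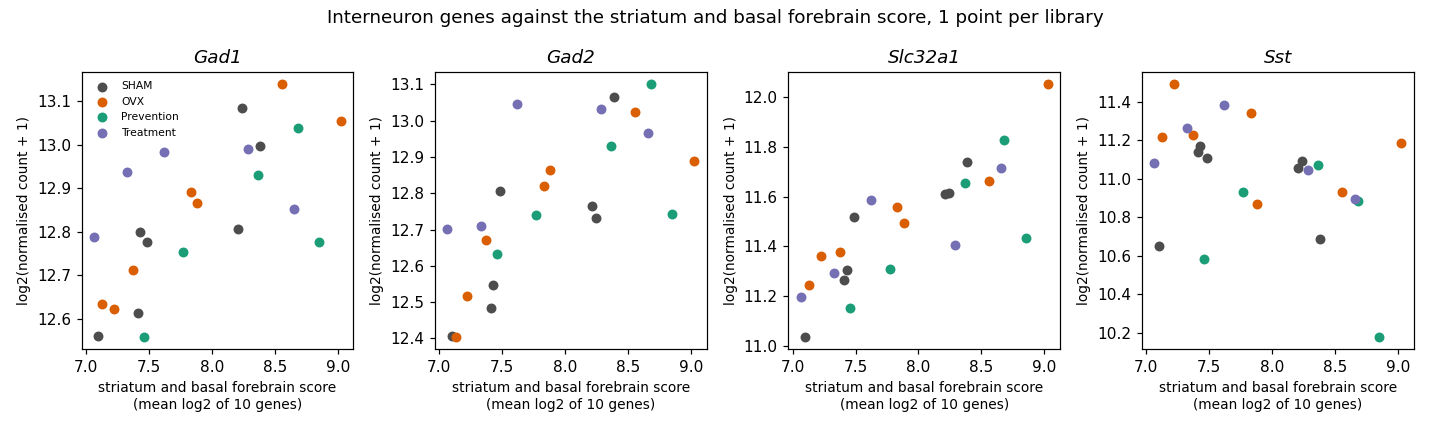
Log2(normalised count + 1) of Gad1, Gad2, Slc32a1 and Sst (y axes) against the striatum and basal forebrain score (x axes), 1 point per library, coloured by group. With group means removed, r was 0.87 for Slc32a1 and -0.31 for Sst.

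The score of pyramidal and granule neurons ran the other way: r was -0.67 with Gad1, -0.71 with Gad2 and -0.72 with Slc32a1 (rho -0.73, -0.63 and -0.71, adjusted permutation p = 0.00696, 0.00443 and 0.00202). Without the 2 farthest libraries the 3 values were -0.62, -0.56 and -0.66, within the low set -0.58, -0.64 and -0.66, and within the high set -0.91, -0.91 and -0.87. Without the 5 libraries of high thalamus score, Gad2 and Slc32a1 had -0.51 (permutation p = 0.0516) and -0.47 (permutation p = 0.0564), which miss the threshold. Cck had an r of -0.66 with the glia and vessel score (rho -0.70, permutation p = 0.000950, adjusted p = 0.00641), -0.60 without the 2 farthest libraries, -0.71 within the low set and -0.42 within the high set.

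The other 3 relations that passed were those of the hypothalamus score with Slc32a1 and of the thalamus score with Gad2 and Slc32a1. For the hypothalamus score, from 9 genes such as Avp and Oxt, r was 0.72 (rho 0.62, permutation p = 0.000620, adjusted p = 0.00478). It was 0.57 without the 2 farthest libraries, OVX replicate 2 and Treatment replicate 6, 0.70 within the low set and 0.76 within the high set. The thalamus score fell into separate clusters of 5 and 19 libraries, so its pooled values are not given and its relations were computed within the 19. There the r was 0.58 with Gad1, 0.64 with Gad2, 0.44 with Slc32a1 and -0.57 with Cck, with unadjusted permutation p from 0.0186 to 0.0436 and adjusted p from 0.0936 to 0.0980 over 9 genes. None passed there. Sst had -0.39 (rho -0.22, permutation p = 0.187). Over all 24 libraries, Sst had an r of -0.49 with the choroid plexus score (rho -0.44, permutation p = 0.0205, adjusted p = 0.0921). That relation did not pass, and was -0.36 without the 2 farthest libraries, Treatment replicate 6 and SHAM replicate 7. Within the low set it was -0.55 and within the high set -0.45. With the groups pooled, the 5 high-thalamus libraries had a median Slc32a1 of 3419 against 2658 in the other 19, and a median Gad2 of 7995 against 6802.

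The genes most like each interneuron gene, by Pearson r of log2 values over the 24 libraries among 12878 tested genes with a symbol and a mean of at least 50, are given as a description, since libraries share their normalisation. For Slc32a1 the nearest were the calcium channel subunit gene Cacna2d2 (0.90), Magel2 (0.88) and the adenylate cyclase gene Adcy7 (0.87), and 22 genes had an r above 0.8. For Gad1 they were Gad2 (0.82), Nhs (0.82) and Fchsd2 (0.81), and for Gad2 they were Nhs (0.86), Klhl13 (0.86) and the purine receptor gene P2ry1 (0.82). For Lhx6, Sept9 (0.73) and Dtx1 (0.67) were among the nearest. After removal of group means these 11 values ran from 0.67 to 0.91.

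For Sst the nearest genes were Smyd5 (0.88), Pld3 (0.80) and Ap3b2 (0.80). For Pvalb they were Bend6 (0.86), the aspartate aminotransferase gene Got1 (0.86) and Plekhb2 (0.81). For Vip they were the adhesion gene Cntn4 (0.85) and the subunit genes Gucy1b3 (0.79) and Gucy1a3 (0.77) of the nitric oxide receptor guanylate cyclase. For Cck they were Gpr162 (0.75), the cholesterol hydroxylase gene Cyp46a1 (0.74) and Serp2 (0.74), and for Nos1 they were the phosphatase gene Ptprf (0.83), Bahcc1 (0.79) and Ikzf4 (0.78). With group means removed, Smyd5 had 0.84 with Sst and Cntn4 had 0.82 with Vip.

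Other genes of the same cells and pathways were counted by list, and in each of the lists below 0 genes passed in any of the 4 comparisons (limma, shares over all genes as given above). Of the 9 genes of GABA transport and breakdown, 6, 5, 7 and 3 had positive changes in OVX against SHAM, Prevention against OVX, Treatment against OVX and Treatment against Prevention. Those of smallest p were Aldh5a1, which clears the GABA breakdown product succinic semialdehyde (0.15 in Prevention against OVX, adjusted p = 0.125), and the glutamine transporter gene Slc38a1 (0.29, adjusted p = 0.127). Of 17 interneuron transcription factors, 11, 8, 8 and 6 were positive in the same order. Adarb2, a marker of interneurons from the caudal eminence, differed by -0.22 in OVX against SHAM (adjusted p = 0.795), and Maf, a factor of Sst and Pvalb cells, by 0.24 in Prevention against OVX (adjusted p = 0.209).

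Among 27 other interneuron markers with values, 15, 16, 14 and 13 had positive changes. Among those of smallest p in Prevention against OVX were the serotonin receptor gene Htr3a (-0.36, adjusted p = 0.233) and Sncg, a marker of Cck basket cells (-0.45, adjusted p = 0.235). Treatment against Prevention gave -0.26 for the potassium channel gene Kcnc1 of fast-spiking cells (adjusted p = 0.792). The receptors of the peptides, 10 tested of 12 with values, had 7, 3, 6 and 6 positive changes in the same order. Sstr5 and Cckar, at 0 in some libraries, were below the filter. The 10 genes of peptide processing and dense core granules had medians of 0.02, -0.01, 0.05 and 0.06 in the 4 comparisons.

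In OVX against SHAM, 51.7% of all genes had a positive change. The perineuronal net, a matrix that encloses mainly Pvalb cells, had 7 of 8 listed genes with a negative change in that comparison (median -0.09). Acan, its core proteoglycan, differed by -0.27 (SE 0.08, unadjusted p = 0.00447) and the cross-linker tenascin R gene, Tnr, by -0.30 (SE 0.10, unadjusted p = 0.00511), both with an adjusted p of 0.795, which did not pass. In Prevention against OVX, 6 of 8 were positive (median 0.06), where 50.2% of all genes were. Tnr differed there by 0.30 (adjusted p = 0.132) and the proteoglycan gene Ncan by 0.18 (adjusted p = 0.214). These comparisons share the OVX libraries. Pvalb itself differed by -0.02 and 0.07.

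In the nitric oxide pathway, 5, 6, 5 and 2 of 8 genes with values had positive changes. The guanylate cyclase subunit gene Gucy1a2 differed by -0.44 in OVX against SHAM (unadjusted p = 0.0200, adjusted p = 0.795) and by 0.67 in Prevention against OVX (SE 0.20, unadjusted p = 0.00219, adjusted p = 0.0829). The cyclic GMP phosphodiesterase gene Pde9a differed by -0.23 (adjusted p = 0.126) and the endothelial synthase gene Nos3 by -0.18 (adjusted p = 0.140) in Prevention against OVX. Nos1 differed by -0.04 in that comparison, and by -0.26 with a term for the library set (unadjusted p = 0.207, adjusted p = 0.999).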

How the data were processed

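The deposited table gives, per gene and library, normalised counts (a signal in arbitrary units, never negative and not whole) that the authors made with kallisto 0.43 and DESeq2, per the submitters' processing notes. The build and annotation behind them were not given in the sources used here. RNA was taken from frozen hippocampus, per the labels' protocols. Whole reads could not be recovered from the low values, so no count model was used, no depth per library is given, and precision rests on the spread between libraries.

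Values were analysed as log2(normalised count + 1) with R 4.3.3 and limma 3.58.1. The 16119 genes with a mean of at least 10 went into 1 fit of all 24 libraries with a mean per group, trended empirical Bayes moderation and 4 contrasts, adjusted by Benjamini and Hochberg. Correlations and figures used Python 3.11.15, scipy 1.17.1 and matplotlib 3.10.9. The fit was also run on simulated data for OVX against SHAM alone. Its outcome is not reported here, and it does not bear on the other comparisons.

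Named were the 10 interneuron genes, up to 3 genes per list and comparison of smallest p, and for each interneuron gene the 3 genes of highest r; some genes that this rule names are not reported here. Members and lists were chosen with earlier results of these data known. Alternatives were other pseudocounts, filters, quantile normalisation, each pair of groups alone, a replicate block, a library set term, the low or high set alone, thalamus and choroid plexus covariates, and leaving out each library. The striatum covariate and leaving out the 5 high-thalamus libraries were chosen after seeing the data. Promoter stretches were matched by symbol (9 of 10).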

Additional observations from a re-analysis of the deposited data

How the results depend on the processing

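The count of interneuron genes that passed was 0 of 9 in each of the 4 comparisons under every alternative run, and with each library left out. Of all genes, 49 passed in Prevention against OVX. That count was 97 with a mean of at least 100, 5 for the pair alone, 0 with the library set term, 604, 261 and 315 with the thalamus, choroid plexus and striatum covariates, 0 without the high-thalamus libraries, and 1 to 481 with 1 library left out (1 without Prevention replicate 3, 481 without OVX replicate 7). In Treatment against Prevention it was 2 with a pseudocount of 8, 3 with the thalamus covariate and 0 to 11 with 1 library left out. The cause was not tested.

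Changes near 0 turned sign. In Prevention against OVX, the library set term, which is estimated from the Treatment libraries alone, gave 0.00084 for Gad1, 0.17 for Slc32a1 and 0.049 for Cck. The striatum covariate gave -0.0038 for Gad2. In Treatment against OVX, Sst was 0.0013 with the library set term. The fit within 1 set gives the same estimate as that term by design, here and in Treatment against Prevention. In Treatment against Prevention, Vip was -0.056 and Nos1 0.021 with that term and within 1 set, and Vip was -0.028 with the choroid plexus covariate. There Slc32a1 was 0.064, 0.0074 and 0.12 with the thalamus, choroid plexus and striatum covariates, and Pvalb 0.052 and 0.030 with the thalamus and striatum covariates. Without the high-thalamus libraries, OVX against SHAM gave 0.062 for Pvalb and -0.10 for Lhx6, Prevention against OVX -0.0075 for Pvalb and -0.012 for Vip, Treatment against OVX 0.015 for Sst and 0.0052 for Lhx6, and Treatment against Prevention 0.057 for Pvalb and 0.066 for Cck.

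With each library left out, the changes of OVX against SHAM ran from -0.019 to 0.090 for Cck, -0.049 to 0.12 for Lhx6, -0.084 to 0.085 for Pvalb and -0.0084 to 0.087 for Gad1. Those of Prevention against OVX ran from -0.11 to 0.029 for Nos1, -0.091 to 0.029 for Gad1, -0.15 to 0.026 for Slc32a1 and -0.0079 to 0.27 for Vip. In Treatment against OVX, Sst ran from -0.11 to 0.014. In Treatment against Prevention, Pvalb ran from -0.10 to 0.039, Vip from -0.12 to 0.15, Lhx6 from -0.0080 to 0.12 and Slc32a1 from -0.12 to 0.052. None of these changes passed under any alternative.

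Replicate numbers are shared between groups, but 8 of 30 same-numbered pairs had deviations correlated above 0.1 (-0.55 to 0.48), and 3 of 24 libraries correlated best with their own number. With the replicate block, 3 genes passed in Prevention against OVX, 0 in the other comparisons, and 0 interneuron genes in any. Under the replicate block Sst differed by -0.51 in Prevention against OVX (adjusted p = 0.136) and by 0.50 in Treatment against Prevention (adjusted p = 0.845).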
